A study of Mus musculus with 21 samples.

Results

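The respiratory chain genes were taken by name from a table of gene reads in the striatum of mice, where most neurons are medium spiny neurons. The series compared mice given a virus carrying Cas9 with controls. A gene was a member if its symbol began with Ndufa, Ndufb, Ndufc, Ndufs or Ndufv (complex I), Uqcr (complex III), Cox4, Cox5, Cox6, Cox7 or Cox8 (complex IV) or Atp5 (complex V), if it was Cyc1 (complex III) or Sdha, Sdhb, Sdhc or Sdhd (complex II), or if it was one of the protein genes of the mitochondrial genome (prefixes mt-Nd, mt-Co, mt-Atp and mt-Cytb). Assembly factors named Ndufaf and pseudogenes marked -ps were left out. The rule took 99 of 41128 symbols, 86 nuclear and 13 mitochondrially encoded. The nuclear genes were 36 of complex I, 4 of complex II, 9 of complex III, 20 of complex IV, 15 of complex V and 2, Atp5s and Atp5sl, that carry the Atp5 prefix without coding for a subunit. Ndufa4 and Ndufa4l2 are counted with complex IV, where the Ndufa4 protein is now known to sit. Cox7a2l, which codes for a supercomplex assembly factor, is also counted there because of its prefix.

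All mice were wild type. Where adeno-associated virus (AAV, a non-replicating gene carrier) was put into the striatum, tissue was taken 3 weeks later. One set of libraries, here set A, held 3 labelled WT, 3 labelled Cas9, the genome-editing nuclease, and 3 labelled GCas9. The other, set B, held 4 each labelled GFP (a fluorescent protein), Cas9 and GCas9. The labels do not spell out GCas9, although the title of the series speaks of a shorter life of Cas9. They give the age as 3 months in one field and 3 weeks in another, and do not say whether WT mice received virus, which promoter drove the cargo or how many animals a library holds. Where replicates are not separate animals, the p-values measure only the spread between libraries, which may be technical. Of 14 listed symbols for markers of medium spiny neurons 13 were found, and 0 of these were at 0 in any group. The symbol not found was Drd1, whose other name Drd1a was also listed and was found.

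Depth, as reads on genes, was 20.34 to 28.05 M reads per library in set A. Libraries of set B held 6.09 to 11.07 M, and there the Cas9 libraries, at 6.09 to 7.69 M, were shallower than the other 8, at 7.81 to 11.07 M. The authors scaled the sets apart, so levels, given as normalized read counts, are compared within a set. Cas9 replicate 1 of set A stood apart, with 280177 normalized counts of Ttr, the transthyretin made by choroid plexus. The other 8 libraries of the set held 188.3 to 10462.1. In set B, Cas9 replicate 1 held 9771 normalized counts of Ttr, and the other libraries 55.3 to 494.8. The female transcript Xist was high in 1 of 3 libraries of each group of set A, and in 2 GFP, 3 Cas9 and 3 GCas9 libraries of set B.

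The respiratory chain passes electrons from NADH (through complex I) and from succinate (through complex II) to complex III, then by cytochrome c to complex IV and oxygen. Complexes I, III and IV pump protons across the inner membrane, and complex V, the ATP synthase, makes ATP from the gradient. The subunits come from both genomes: complex II is wholly nuclear, and the others join nuclear subunits to a few made inside the mitochondrion from transcripts cut out of long polycistronic RNAs. Neurons depend heavily on this ATP, and complex II of the striatum is known as a site of action of toxins used to model Huntington's disease.

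Of the 13 mitochondrially encoded members, 7 could be measured and 6 were empty in all 21 libraries. The empty ones were mt-Co2, mt-Atp8, mt-Atp6, mt-Co3, mt-Nd3 and mt-Nd4l, which lie side by side from base 7013 to base 10173 of the mitochondrial genome (GRCm38) and held 0 to 2 reads in any library. The genes on either side, mt-Co1 and mt-Nd4, held 362947 to 500702 and 99685 to 150385 reads per set A library. The stretch is also present as a nuclear copy on chromosome 1, annotated as a row of pseudogenes. Of the 50-base windows of the transcript, the share also found in the transcript of another gene was 100% for mt-Co2, 99.86% for mt-Co3, 99.53% for mt-Atp6, 98.79% for mt-Nd4l and 97.99% for mt-Nd3. It was 62.23% for mt-Nd4, 51.14% for mt-Co1, 8.19% for mt-Nd2, 7.61% for mt-Nd5 and 0% for mt-Nd1, mt-Nd6 and mt-Cytb. It was 0% for mt-Atp8 too, for which the annotation lists no copy although it lies inside the stretch. The largest copy of mt-Co2, subunit 2 of cytochrome c oxidase, is Gm28661 (chr1:24614885-24615565, minus strand), which matched it over 681 bases with 0 mismatches. The first 150 bases, at chrM:7013-7162 (plus strand) and again at chr1:24615416-24615565 (minus strand), are shown because the letters are the same at both places:
mt-Co2 and Gm28661: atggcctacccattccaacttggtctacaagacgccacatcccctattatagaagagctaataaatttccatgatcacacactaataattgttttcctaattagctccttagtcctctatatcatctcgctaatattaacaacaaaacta
The copies of mt-Atp6 (678 bases aligned), mt-Co3 (783 bases) and mt-Nd4l (294 bases) also had 0 mismatches, and that of mt-Nd3 had 1 in 345. How reads that fit several places were counted is not given in the sources used here, and its part in the 6 empty genes was not tested. The levels of mt-Co1 and mt-Nd4, of which about as many windows are shared as not, are therefore of unknown completeness, and the mitochondrially encoded members are not ranked by level.

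**Figure D1:**
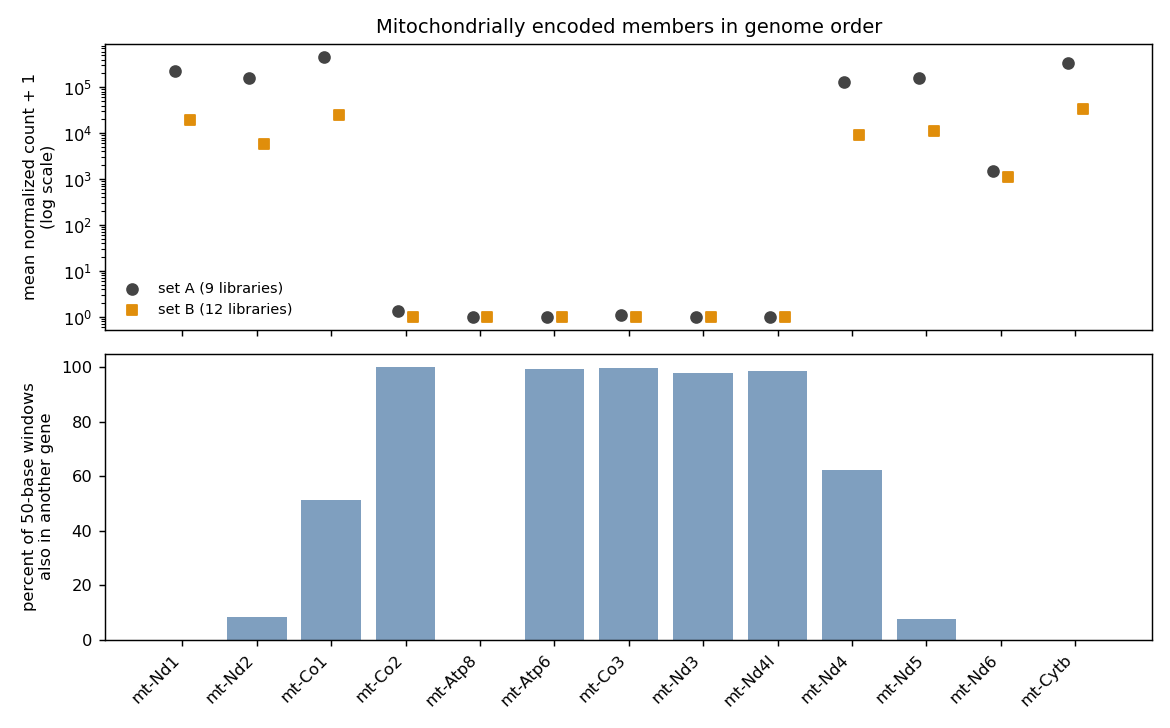
Mean normalized count plus 1 of each mitochondrially encoded member in set A (circles, 9 libraries) and set B (squares, 12 libraries) on a log scale (top), and the percent of its 50-base windows also found in an annotated transcript of another gene (bottom), in genome order. The 6 genes from mt-Co2 to mt-Nd4l sit at the bottom of the scale, and 5 of them have shares of 97.99% or more.

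The mitochondrially encoded members took 5.51 to 6.79% of gene reads in set A, against 0.85 to 1.7% in set B, while the 86 nuclear members took 0.837 to 0.902% and 1.23 to 1.59%. The ratio of mitochondrially to nuclear encoded reads was thus 6.58 to 7.79 in the first and 0.672 to 1.07 in the second, with no overlap. This holds for libraries of the same label, since the Cas9 libraries lay at 7.2 to 7.79 there and 0.876 to 1.013 in set B. A library's size factor cancels in this ratio. Set and depth differ together, and their parts in the gap cannot be told apart. Strand use in counting is not stated, so reads of mt-Nd6, the one member on the other DNA strand, and of RNA from the opposite strand cannot be told apart.

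**Figure D2:**
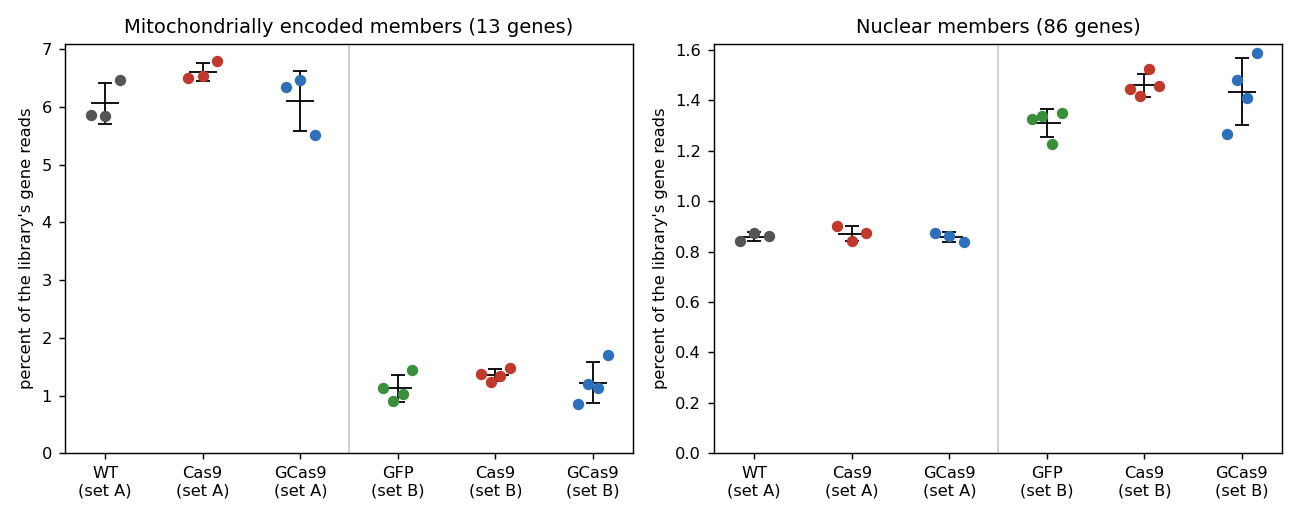
Percent of gene reads taken by the mitochondrially encoded (left) and nuclear (right) members in each library, by group, with group mean and SD. Set A sits at 5.51 to 6.79% on the left against 0.85 to 1.7% in set B. On the right the Cas9 libraries of set B (1.42 to 1.52%) do not overlap the GFP libraries (1.23 to 1.35%).

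Within the nuclear members the most abundant transcript was Atp5b, the catalytic beta subunit of ATP synthase, with means of 23265 in set A and 16264 in set B. On the scale of normalized counts per kilobase of principal transcript it was also the highest, at 12142 and 8489. Of complex IV, Cox4i1 (10820 and 5710 per kilobase) came next in both sets. Cox8a stood at 10368 and 4920 per kilobase and Cox6a1 at 9111 and 5156, so their order differed between the sets. Complex II transcripts were led by Sdha, the flavoprotein that oxidises succinate (means of 7976 and 6097 normalized counts), with the iron-sulfur subunit Sdhb at 2437 and 2025 and the membrane anchors Sdhc at 1656 and 757 and Sdhd at 1537 and 1133. Cyc1, cytochrome c1 of complex III, had means of 2427 and 1958. Atp5l, whose level was low for a subunit gene (means of 43.2 and 18.4), shares 84.85% of its windows with 14 other genes, and its count may miss reads for that reason, which was not tested. Atp5l was chosen after its values were seen.

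Paralogous forms differed widely in level. Per kilobase, Cox4i1 stood 171 times above Cox4i2, the lung and oxygen-regulated form, in set A and 234 times in set B. Cox6a1 stood 81.4 and 91.4 times above the heart and muscle form Cox6a2, Cox7a2 stood 84.8 and 98.5 times above the muscle form Cox7a1, and Cox8a stood 418 and 723 times above the muscle form Cox8b. Cox8c, a testis form, had 1 read in all 21 libraries. Cox6b1 stood 38.8 and 98.1 times above the testis form Cox6b2, and Ndufa4 93.3 and 173 times above Ndufa4l2. The c-ring of ATP synthase is built of one protein coded by Atp5g1, Atp5g2 and Atp5g3. Atp5g3 stood 7.97 and 7.75 times above Atp5g1, and 4.61 and 29.9 times above Atp5g2. The ratio to Atp5g1 depends on the length used for it, 2675.5 bases, a median over its principal transcripts, against 718.5 for Atp5g3. Without division by length, the means of Atp5g3, Atp5g1 and Atp5g2 were 3485, 1628 and 616 in set A. In set B they were 2286, 1098 and 62.4. Cox7a2 stood 1.88 and 5.2 times above Cox7a2l, which codes for a supercomplex assembly factor. The minor forms Cox7a1, Cox7b2 and Cox8b held 0 to 39 reads in any library, so their ratios rest on few reads.

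Groups were compared on log2(normalized count + 1) with limma over all genes with a mean of at least 10, and an adjusted p (Benjamini-Hochberg) under 0.05 was taken as past the threshold. The filter left 91 members in set A (84 nuclear, 7 mitochondrially encoded) and 89 in set B (82 and 7). Cox8b, Cox8c and the 6 empty mitochondrial genes were left out in both sets, and Cox7a1 and Cox7b2 in set B.

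The first comparison asked whether respiratory chain transcripts differ between the Cas9 and WT libraries of set A. They did not pass the test: 0 of 91 members were past the threshold, against 1 of 15924 genes (0.00628%). Most members were a little higher with Cas9, 65 of 91 (49.1% of all genes were higher), with a median log2 difference of 0.03 for nuclear members, 0.14 for the 7 mitochondrially encoded ones and -0.003 for all genes. At an unadjusted p under 0.05, 3 members were higher (6.17% of all genes) and 0 lower (5.65%). edgeR and DESeq2 on the recovered reads also called 0 members, against 0 and 116 genes in all. With them 4 and 5 members were higher at an unadjusted p under 0.05 (7.5% and 7.78% of all genes). Without WT replicate 1 (3.69% of all genes) or Cas9 replicate 1 (2.87%) the limma count of 3 became 0. It became 1 without Cas9 replicate 3 (4.21%) and 9 without Cas9 replicate 2 (10.7%). The medians by complex were 0.03 for I, -0.01 for II, 0.01 for III, 0.06 for IV and 0.02 for V.

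The member of smallest p was Ndufc1, a small accessory subunit of complex I. It stood at 452, 516 and 502 in the WT libraries, at 598, 558 and 568 with Cas9 and at 523, 514 and 458 with GCas9. All 3 Cas9 libraries lay above all WT and all GCas9 libraries. The log2 difference from WT was 0.23 ± 0.08 (SE, n = 3 each, limma adjusted p = 0.405) and that of GCas9 from Cas9 was -0.21 ± 0.08 (limma adjusted p = 0.89). Atp5j, the coupling factor 6 subunit of ATP synthase, had 2347, 2485 and 2453 in WT and 2748, 2513 and 2725 with Cas9. Its groups again did not overlap (0.13 ± 0.05, limma adjusted p = 0.412). For Sdhc the difference was 0.09 ± 0.06 (limma adjusted p = 0.524), for Uqcrb, the ubiquinone-binding subunit of complex III, 0.10 ± 0.05 (limma adjusted p = 0.448) and for Cox6c 0.10 ± 0.06 (limma adjusted p = 0.495). mt-Nd2, a core subunit of complex I, had 140171, 153842 and 150834 in WT and 171235, 175625 and 164504 with Cas9. Its groups did not overlap, as for 9 of 91 members in the higher direction (10.7% of all genes) and 2 in the lower (8.86%), but its difference of 0.20 ± 0.13 had limma adjusted p = 0.536 and was -0.06 with quantile normalization. Quantile normalization also turned the mitochondrially encoded median to -0.06. With array weights, which let libraries differ in weight, limma put Ndufc1, Atp5j, Cox8a and mt-Nd6 past the threshold (adjusted p from 0.0223 to 0.0419), in a fit that put 2570 genes in all past it. There Cas9 replicate 3 had a weight of 5.6 and Cas9 replicates 1 and 2 had 0.32 and 0.48. The Cas9 side of these calls thus rested mainly on 1 library.

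Markers of other cells were also higher with Cas9 in this comparison. Microglia and macrophage markers were higher in 13 of 13 (median 0.89, summed level 8282 to 10091 in WT and 12274 to 18991 with Cas9), and one of them, Gpnmb, was past the threshold (limma adjusted p = 0.0383). T and B cell markers were higher in 7 of 8 (2.56, 3483 to 4049 and 4025 to 11264), endothelial ones in 8 of 8 (0.33, 7048 to 7748 and 8084 to 9636) and mural cell ones in 11 of 11 (0.26, 5123 to 5637 and 5625 to 7281). Oligodendrocyte markers were higher in 10 of 10 (median 0.5, summed level 199290 to 240308 in WT and 232980 to 385631 with Cas9) and astrocyte markers in 10 of 10 (0.26, 97830 to 103130 and 113500 to 128327). Markers of all neurons were lower in 9 of 10 (-0.15, 141695 to 148817 and 119724 to 145114), and of all these lists 0 markers were at 0 throughout a group. Medium spiny neuron markers were lower in 12 of 13 (-0.1). Choroid plexus and ependymal markers were higher in 9 of 11 (1.68), with a summed level of 6239 to 7216 in WT and 7318 to 382075 with Cas9. The other marker lists had medians from -0.15 (red blood cells) to 0.04 (muscle, 2 genes tested). A smaller number of cells of a type and less RNA per cell cannot be told apart in bulk tissue, and the part of cell makeup in the values of the respiratory chain genes was not tested.

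GCas9 was next compared with WT within set A. Again 0 of 91 members were past the threshold, against 1 of 15924 genes (0.00628%), and here 35 of 91 were higher (49.9% of all genes), with medians of -0.01 for nuclear and -0.02 for mitochondrially encoded members and 0 for all genes. Scaling by the total over nuclear-encoded genes turned this to 52 of 91 higher and a nuclear median of 0.02, where all genes had 0.03. At an unadjusted p under 0.05 there were 1 higher (4.44% of all genes) and 1 lower (2.33%). edgeR and DESeq2 called 0 members, against 1 and 218 genes in all. Each had 1 member higher (6.17% and 6.46% of all genes) and 2 lower at that p. The share of all genes lower was not taken for these tools. Groups did not overlap for 2 members in the higher direction (9.16% of all genes) and 9 in the lower (7.02%). Microglia and macrophage markers were higher with GCas9 in 13 of 13 (median 1.03), T and B cell markers in 7 of 8 (2.72) and choroid plexus and ependymal ones in 11 of 11 (0.62). Markers of all neurons were lower in 10 of 10 (-0.11), of medium spiny neurons in 13 of 13 (-0.11) and of red blood cells in 5 of 5 (-0.57). The other marker lists had medians from -0.15 (parvalbumin interneurons) to 0.14 (astrocytes). The part of all these lists in the members' values was not tested. Uqcrb had 1462, 1484 and 1411 in WT and 1527, 1615 and 1663 with GCas9. The 3 GCas9 libraries lay above the 3 WT libraries (0.14 ± 0.05, limma adjusted p = 0.724). Ndufv2, an iron-sulfur subunit of complex I, had 2092, 1989 and 2057 in WT and 1886, 1931 and 1881 with GCas9, all of the latter below all of the former (-0.11 ± 0.04, limma adjusted p = 0.724). Of the other complexes, the members of smallest p were Sdha (-0.06 ± 0.05, limma adjusted p = 0.814), Atp5g1 (-0.18 ± 0.09, 0.725), Cox6b2 (0.89 ± 0.48, 0.749) and mt-Nd6 (0.34 ± 0.31, 0.823).

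Cox6b2, a form of complex IV subunit 6B known from testis, spread widely in set A. It stood at 43.3, 43.1 and 55.4 in WT, 178, 54.2 and 50.6 with Cas9 and 136, 85.4 and 57.7 with GCas9. The value of 178 was in Cas9 replicate 1, the library of set A with the high Ttr. The same library was highest for the muscle forms Cox8b (40.5, 1.97 and 8.09 in the Cas9 libraries, at most 8.63 in WT and GCas9) and Cox7a1 (34.3, 9.86 and 10.1, at most 13.6 in WT and GCas9). Summed over 11 listed choroid plexus and ependymal markers, that library held 382075 normalized counts, against 6239 to 20605 in the other 8. Over 7 listed muscle markers the Cas9 libraries held 124 to 135, against 125 to 155 in WT, with Ckm and Myh4 at 0 in the Cas9 group. The part of choroid plexus RNA in these 3 genes was not tested.

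Between GCas9 and Cas9 in set A, 0 of 91 members were past the threshold, against 0 of 15924 genes (0%). Members were lower with GCas9 in 72 of 91, while 54.3% of all genes were higher, and the medians were -0.06 for nuclear members, -0.14 for mitochondrially encoded ones and 0.01 for all genes. At an unadjusted p under 0.05, 3 members were lower (3.07% of all genes) and 0 higher (2.38%). edgeR and DESeq2 gave the same counts of 3 and 0, with 0 members called, against 0 and 5 genes in all. These 3 by limma were Ndufc1, Cox7c and Atp5g1. The count of 3 became 0 without Cas9 replicate 1, Cas9 replicate 3 or GCas9 replicate 3, 1 without GCas9 replicate 1, 6 without GCas9 replicate 2 and 12 without Cas9 replicate 2. For both tools and these fits the share of all genes lower at that p was not taken, so the counts cannot be set against it. The share of all genes higher at that p also moved, from 1.23% without Cas9 replicate 3 to 5.97% without Cas9 replicate 2. The mitochondrially encoded median was -0.06 without GCas9 replicate 3 and -0.23 without GCas9 replicate 2. Oligodendrocyte markers were lower with GCas9 in 10 of 10 (median -0.47, summed level 232980 to 385631 with Cas9 and 204655 to 222046 with GCas9), endothelial markers in 8 of 8 (-0.21) and mural cell markers in 10 of 11 (-0.18). Red blood cell markers were lower in 5 of 5 (-0.44) and choroid plexus and ependymal ones in 7 of 11 (-0.72). The other marker lists had medians from -0.06 (parvalbumin interneurons) to 0.13 (T and B cells). Their part in the members' values was not tested. Groups did not overlap for 3 members in the higher direction (4.4% of all genes) and 8 in the lower (4.45%). Cox7c, a small subunit of complex IV, had 1705, 1506 and 1786 with Cas9 and 1466, 1528 and 1468 with GCas9. These groups overlapped (-0.16 ± 0.06, limma adjusted p = 0.894). Atp5g1 had 1881, 1541 and 1702 with Cas9 and 1496, 1625 and 1352 with GCas9, also overlapping (-0.20 ± 0.09, limma adjusted p = 0.914). With array weights Cox7c passed (limma adjusted p = 0.0322), as did 932 genes in all, again with a weight of 5.6 on Cas9 replicate 3. Sdhb was one of the 19 higher members (0.06 ± 0.05, limma adjusted p = 0.931). For mt-Nd5 the difference was -0.22 ± 0.17 (limma adjusted p = 0.945), which became 0.15 with quantile normalization, as the mitochondrially encoded median became 0.11. For Uqcr11 it was -0.11 ± 0.07 (limma adjusted p = 0.931). GCas9 replicate 3 was the lowest of the set for both kinds of member, at a median of -0.24 log2 units from the gene's mean for mitochondrially encoded and -0.09 for nuclear members.

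In set B the first comparison set Cas9 virus against GFP virus. Respiratory chain transcripts were higher with Cas9 in 85 of 89 members (48.7% of all genes were higher), by a median of 0.21 log2 units for nuclear members and 0.3 for mitochondrially encoded ones, against -0.005 for all genes. Single genes did not pass: 0 of 89 were past the threshold, against 0 of 15428 genes (0%). At an unadjusted p under 0.05, 32 members were higher (3.23% of all genes) and 0 lower (3.01%), all of them nuclear. The Cas9 libraries lay above the GFP libraries without overlap for 37 members (2.63% of all genes), and below for 0 (2.05%). edgeR and DESeq2 called 0 members, against 0 and 10 genes in all. With them 28 and 35 members were higher at an unadjusted p under 0.05 (3.17% and 2.91% of all genes). The 4 lower members, Ndufs1, Uqcrc1, Ndufa4l2 and Sdha, differed by -0.02 to -0.12. Leaving out 1 library gave 83 to 87 higher members and nuclear medians of 0.16 to 0.25. The limma count at an unadjusted p under 0.05 was 9 without GFP replicate 3 (2.36% of all genes) and up to 37 without GFP replicate 4 (3.42%). With the sex of the library, read from Xist, as a covariate it was 23 (2.67%).

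Medians were 0.23 for complex I (35 of 36 higher), 0.11 for complex II (3 of 4), 0.21 for complex III (8 of 9), 0.31 for complex IV (15 of 16) and 0.18 for complex V (15 of 15). In complex I the smallest p was that of Ndufa11, an accessory subunit of the membrane arm. It had 826, 874, 719.6 and 859 in the GFP libraries and 1161, 983, 1113 and 986 with Cas9. The lowest Cas9 library lay above the highest GFP library (0.37 ± 0.11, SE, n = 4 each, limma adjusted p = 0.781). Uqcrq, a small subunit of complex III, had 979, 1039.7, 830.1 and 1052 with GFP and 1334, 1216, 1356 and 1311 with Cas9. Its groups did not overlap either (0.42 ± 0.13, limma adjusted p = 0.781).

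Cox6c of complex IV had 1303, 1558, 1178 and 1643 with GFP and 1759, 1886, 1891 and 1976 with Cas9, without overlap (0.41 ± 0.14, limma adjusted p = 0.781). Atp5o, the oligomycin sensitivity subunit of ATP synthase, had 1250.2, 1259, 1215 and 1189 with GFP and 1474, 1407, 1403 and 1329.8 with Cas9. All Cas9 values were above all GFP values (0.19 ± 0.06, limma adjusted p = 0.781). Sdhb had 1959.5, 1933, 1805 and 1825 with GFP and 2071, 2077, 2455 and 2079 with Cas9, without overlap (0.20 ± 0.07, limma adjusted p = 0.781), whereas Sdha overlapped (-0.02 ± 0.06, limma adjusted p = 0.983). For Sdhc and Sdhd the differences were 0.14 ± 0.14 and 0.08 ± 0.08, and for Cyc1 0.17 ± 0.07 (limma adjusted p from 0.785 to 0.894 for the 3). The most abundant subunit transcript, Atp5b, differed by 0.04 ± 0.06, with a 95% interval of -0.09 to 0.18.

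The mitochondrially encoded members were higher in 7 of 7, by 0.26 to 0.36, but 0 of 7 had groups that did not overlap. mt-Cytb, cytochrome b of complex III, had 28766, 24352, 26913 and 38258 with GFP and 37309.99, 33540.3, 34608 and 38973 with Cas9. GFP replicate 4 lay within the Cas9 range (0.31 ± 0.17, limma adjusted p = 0.803). As a share of reads the 7 genes came to 0.908 to 1.45% with GFP and 1.24 to 1.47% with Cas9.

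**Figure D3:**
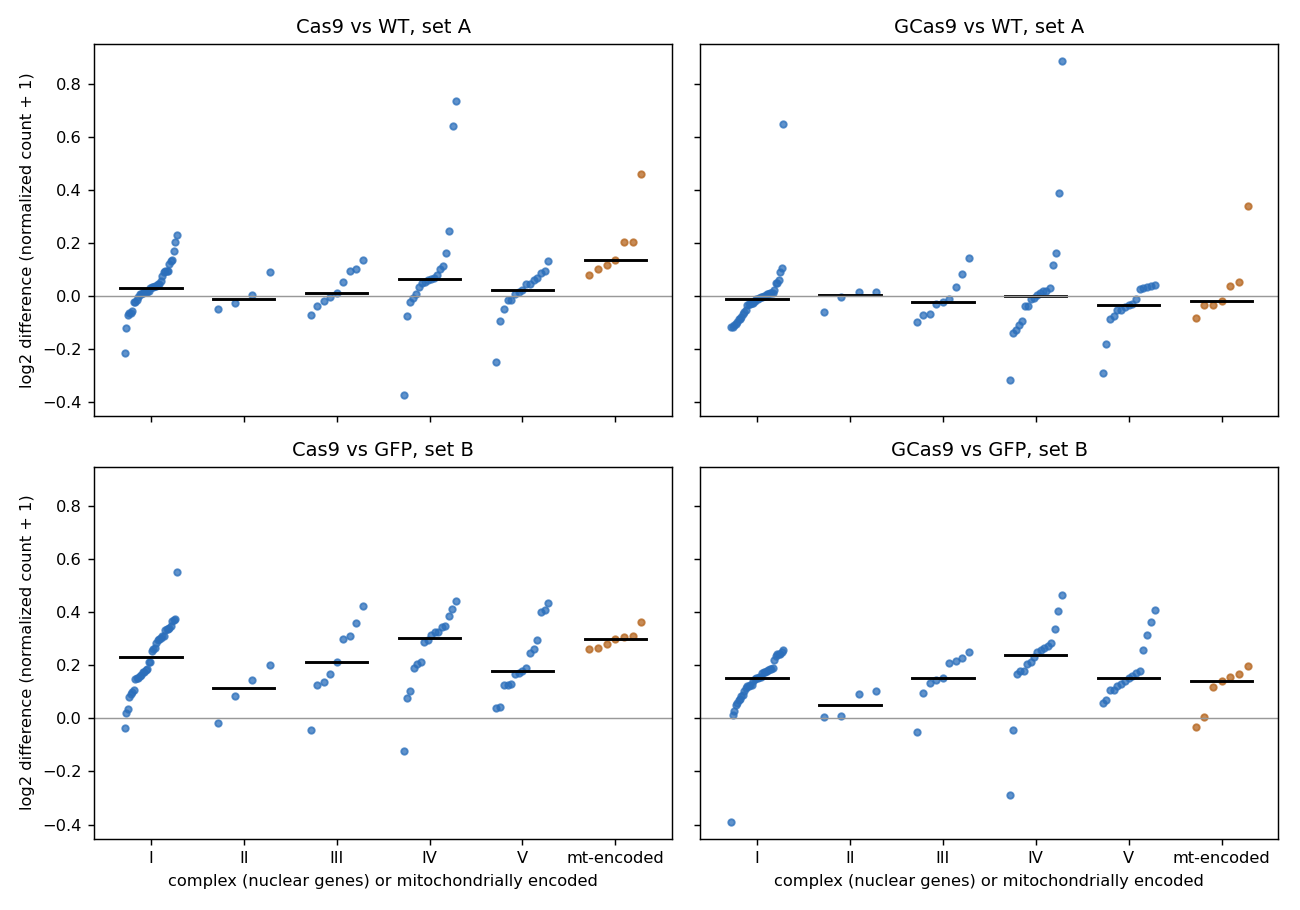
Log2 difference in log2(normalized count + 1) of each tested member, one point a gene, by complex, for Cas9 and GCas9 against WT in set A (top) and against GFP in set B (bottom), with the median of each complex as a line. Medians lie between -0.03 and 0.14 in set A and between 0.05 and 0.31 in set B.

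Transcript length and a second abundant gene class moved with this result. Over all tested genes the median log2 difference was 0.11 where the principal transcript is under 1000 bases (1447 genes) and -0.01 where it is longer (13225 genes). The 52 members under 1000 bases had a median of 0.3 and the 36 longer ones 0.16. The 77 genes of cytosolic ribosomal proteins, also short, had a median of 0.22. Depth differed as well, the Cas9 libraries being the shallowest of set B. When reads were thinned to the smallest library, 34 members were higher at an unadjusted p under 0.05 (3.17% of all genes). The part of transcript length was not tested. Some cell markers were also higher with Cas9 than with GFP. Red blood cell markers were higher in 5 of 5 (median 0.44) and choroid plexus and ependymal ones in 7 of 9 (0.52). Oligodendrocyte markers were higher in 9 of 10 (0.11) and astrocyte markers in 8 of 10 (0.075). The other marker lists had medians from -0.11 (mural cells) to 0.14 (T and B cells). Their part in the members' values was not tested.

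Promoter sequences were read for the nuclear members. Of the 86 nuclear members 70 matched the RefSeq promoter table (GRCm38.p6, 250 bases before to 50 after the start site, 76 promoters). Nuclear respiratory factor 1 (NRF-1), known to drive many respiratory chain genes, binds sites with the core GCATGCGC. These letters, on either strand (GCGCATGC on the other), were in 10 of 76 member promoters (13.2%) and in 2.7% of all 32851. The ETS core CCGGAAG, bound by the GABP factor among others, was in 21.1% against 8.9%, and AAGGTCA, a site of estrogen-related receptors, in 10.5% against 4.7%. A match describes letters and does not show binding. The upstream 250 bases of the 3 members of smallest p that hold the NRF-1 core before the start site are shown 5′ to 3′ on the strand of the gene, with the core in capitals. Ndufa11 lies at chr17:56717512-56717761 (plus strand) and Sdhb at chr4:140961021-140961270 (plus strand). Ndufa6, an accessory subunit of complex I, lies at chr15:82354292-82354541 (minus strand).
Ndufa11: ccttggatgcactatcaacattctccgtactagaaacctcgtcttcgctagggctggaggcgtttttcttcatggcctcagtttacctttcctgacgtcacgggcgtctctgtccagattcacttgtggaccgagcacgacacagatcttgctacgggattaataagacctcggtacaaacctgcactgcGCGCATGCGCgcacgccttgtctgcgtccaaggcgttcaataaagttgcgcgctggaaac
Sdhb: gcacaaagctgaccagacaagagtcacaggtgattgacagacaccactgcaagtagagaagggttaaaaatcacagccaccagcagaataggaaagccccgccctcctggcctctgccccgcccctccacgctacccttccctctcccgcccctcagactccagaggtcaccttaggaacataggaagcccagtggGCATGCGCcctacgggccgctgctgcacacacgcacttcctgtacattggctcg
Ndufa6: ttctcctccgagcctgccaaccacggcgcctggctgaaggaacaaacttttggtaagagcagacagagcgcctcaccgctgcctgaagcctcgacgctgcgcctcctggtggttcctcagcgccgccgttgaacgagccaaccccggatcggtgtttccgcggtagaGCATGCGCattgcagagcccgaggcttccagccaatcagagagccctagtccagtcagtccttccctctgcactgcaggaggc
In Ndufa11 the core is read on both strands at overlapping positions, which gives 10 capitals in a row, and in Sdhb and Ndufa6 it begins 54 and 83 bases before the start site. Ndufa6 had 434, 455, 445 and 559.6 with GFP and 561, 563, 633 and 629 with Cas9. These groups did not overlap (0.34 ± 0.13, limma adjusted p = 0.781).

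GCas9 against GFP was the second comparison of set B. It shares its GFP libraries with the comparison of Cas9 against GFP. With GCas9 84 of 89 members were higher (49.1% of all genes), with medians of 0.16 for nuclear and 0.14 for mitochondrially encoded members and -0.003 for all genes. None of the 89 was past the threshold (limma, 0 of 15428 genes, 0%), and 13 were higher at an unadjusted p under 0.05 (3.71% of all genes) and 0 lower (2.76%). Groups did not overlap in the higher direction for 6 members (2.5% of all genes) and in the lower for 0 (1.66%). edgeR and DESeq2 called 0 members, against 0 and 41 genes in all. With them 15 and 17 members were higher at that p (4.11% and 3.72% of all genes). The GCas9 libraries varied widely, with nuclear members at 1.26, 1.48, 1.41 and 1.59% of reads and mitochondrially encoded ones at 0.85, 1.21, 1.13 and 1.7%. Without GCas9 replicate 1 the count of 13 became 48 (5.09% of all genes), and without GFP replicate 3 it became 6 (2.89%). The nuclear median ran from 0.07 to 0.28 over the libraries left out. The mitochondrially encoded median was -0.07 without GCas9 replicate 4 and 0.005 with quantile normalization. Red blood cell markers were higher with GCas9 in 5 of 5 (median 0.255) and markers of all neurons in 9 of 10 (0.08). T and B cell markers were lower in 6 of 7 (-1.06). The other marker lists had medians from -0.09 (microglia and macrophages) to 0.11 (endothelium). Their part in the members' values was not tested.

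Cox4i1, the main form of complex IV subunit 4, had 3748, 4062, 3486 and 4117 with GFP and 4096, 4636, 4445 and 5301 with GCas9. GCas9 replicate 1 lay just below GFP replicate 4 and the other 3 lay above all GFP libraries (0.26 ± 0.08, limma adjusted p = 0.719). Ndufs4, a subunit whose loss is known to cause Leigh syndrome, had 609, 692, 604 and 647 with GFP and 664, 762, 766 and 867 with GCas9, overlapping in 1 library (0.26 ± 0.08, limma adjusted p = 0.719). Atp5o had 1265, 1428, 1425 and 1451 with GCas9, all above GFP (0.18 ± 0.06, limma adjusted p = 0.721). The others of smallest p were Uqcrc2, a core subunit of complex III (0.15 ± 0.06, 0.748), Sdhb (0.10 ± 0.07, 0.814) and mt-Nd5 (0.20 ± 0.17, 0.858).

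**Figure D4:**
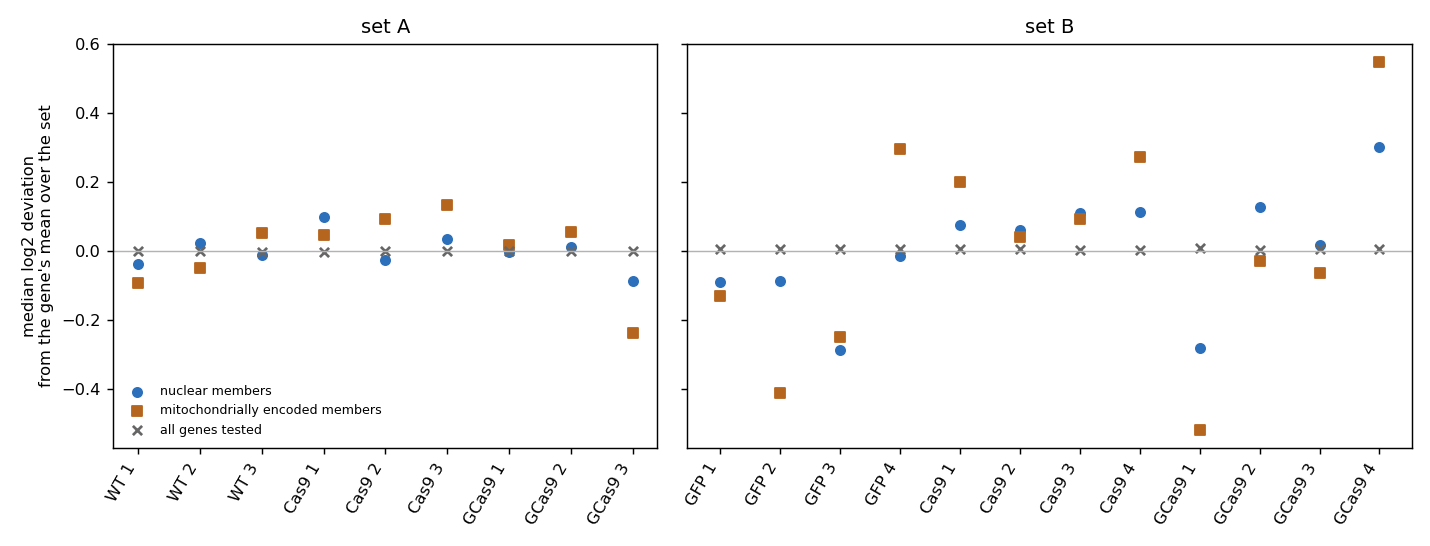
Median log2 deviation of nuclear members (circles), mitochondrially encoded members (squares) and all tested genes (crosses) from each gene's mean over the set, per library. In set B GCas9 replicate 1 lies at -0.28 and -0.52 and GCas9 replicate 4 at 0.3 and 0.55, the Cas9 libraries lie at 0.06 to 0.12 for nuclear members, and the GFP libraries at -0.29 to -0.01.

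Between GCas9 and Cas9 in set B 0 of 89 members were past the threshold (limma, 0 of 15428 genes, 0%), and 0 members reached an unadjusted p under 0.05 in either direction by limma, edgeR or DESeq2 (2.27% of all genes higher and 1.57% lower by limma). Groups did not overlap for 0 members in either direction (1.23% of all genes higher and 0.797% lower). With the replicate number as a block, 0 members were past the threshold and 1 was lower at an unadjusted p under 0.05 by limma. The share of all genes lower was not taken in that fit. With GCas9 69 of 89 members were lower, with medians of -0.06 for nuclear and -0.18 for mitochondrially encoded members, though leaving out GCas9 replicate 1 gave medians of 0.04 and 0. The largest difference among the members of smallest p was that of the muscle form Cox6a2, at 41.8, 41.7, 64.9 and 39.3 with Cas9 and 14.6, 65.7, 28.9 and 23.1 with GCas9, where both groups spread widely and overlapped (-0.67 ± 0.34, limma adjusted p = 0.995). For Ndufa7 of complex I it was -0.24 ± 0.13, for Sdhb -0.10 ± 0.07 and for Uqcrq -0.18 ± 0.13. For Atp5j2 of complex V it was -0.27 ± 0.16 and for mt-Nd1 -0.30 ± 0.22. All of these had limma adjusted p = 0.995.

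Whether the step from Cas9 to GCas9 differed between the sets was tested as an interaction over all 21 libraries. Of 90 members tested, 43 had a larger value in set B (49.4% of all genes), 0 were past the threshold (limma, 0 of 16094 genes, 0%) and 0 reached an unadjusted p under 0.05, with 0 by edgeR and 1 by DESeq2 at that p. The medians were 0 for nuclear and -0.05 for mitochondrially encoded members. The members of smallest p were Sdhb (-0.16 ± 0.09), Atp5b (0.16 ± 0.09), Cox4i2 (0.69 ± 0.43), Ndufa7 (-0.17 ± 0.17), mt-Nd5 (0.14 ± 0.26) and Uqcrq (-0.10 ± 0.18). Each had limma adjusted p = 0.992. The differences from WT and from GFP were not set against each other by a test, since the controls differ.

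Genes that build and feed the chain were followed as lists. In Cas9 against GFP, 31 of 41 tested assembly factors of the complexes were higher (median 0.1, 2 at an unadjusted p under 0.05), 12 of 19 genes of mitochondrial RNA processing (0.07, 2), 15 of 20 of the outer membrane and import (0.06, 1), 17 of 24 of the citric acid cycle and pyruvate dehydrogenase (0.02, 0), 11 of 17 of glycolysis (0.02, 0) and 7 of 17 of mitochondrial transcription, replication and biogenesis (-0.02, 1). Over all genes 48.7% were higher and 3.23% were higher at that p. None of these lists held a gene past the threshold by limma in this comparison, where each list's median lay below the nuclear members' 0.21. In set A the same lists had medians between -0.07 and 0.03 for Cas9 against WT.

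One complex I gene, Ndufs5, had the widest spread within groups of all nuclear members tested, with an SD of log2 level within groups of 1.54 (set A) and 2.14 (set B), against medians of 0.08 and 0.19 over nuclear members. It was chosen after its values were seen. In set A it had 322, 319.8 and 30.7 normalized counts in WT, 364, 166 and 33.4 with Cas9 and 378, 172 and 191 with GCas9. The libraries fell into a high, a middle and a low level, spread over the groups. In set B it had 95.8, 3.4, 46.7 and 75.5 with GFP, 71.1, 102, 5.9 and 140 with Cas9 and 6.1, 109.8, 4.8 and 114 with GCas9. Here 4 libraries lay at 3.4 to 6.1 and the other 8 at 46.7 to 140, again in every group, so the groups overlapped widely (Cas9 against GFP 0.55 ± 1.23, limma adjusted p = 0.973).

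BC002163, a near-identical copy of Ndufs5, had the opposite order in set A. It had 3.8, 9.5 and 537 in WT, 11.4, 263 and 576 with Cas9 and 13.4, 342 and 252 with GCas9. It was highest in the libraries where Ndufs5 was lowest, and the sum of both genes ran from 325 to 610. In set B BC002163 had 84.2, 147, 57.2 and 77.3 with GFP, 80.2, 100.1, 157 and 164 with Cas9 and 95.2, 122, 170.1 and 121 with GCas9. Its values overlapped between the libraries of low and high Ndufs5. The Ndufs5 gene lies at chr4:123712710-123718202 (minus strand) and BC002163 at chr16:42955631-42955949 (plus strand). They align over 319 bases with 2 mismatches (T328C and A352G, positions from the first base of the Ndufs5 transcript), and 31.06% of the 50-base windows of Ndufs5 occur in the copy. The first 150 coding bases of both are shown, with the mismatches in capitals, since only these 2 letters tell the copies apart here:
Ndufs5: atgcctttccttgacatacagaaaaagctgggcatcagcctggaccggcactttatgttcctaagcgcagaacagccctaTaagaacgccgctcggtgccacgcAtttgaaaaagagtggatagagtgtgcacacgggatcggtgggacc
BC002163: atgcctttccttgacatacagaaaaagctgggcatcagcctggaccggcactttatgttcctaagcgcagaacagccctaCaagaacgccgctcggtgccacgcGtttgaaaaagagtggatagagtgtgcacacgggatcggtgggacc
Outside the chain, Cap1 and Rbm45 had the strongest negative and positive correlation with Ndufs5 in set B among 12163 genes ranked (r = -0.98 and 0.96). They were picked by that ranking, after their values were seen, so their split along the same 4 libraries follows from the choice. In set A Rbm45 ran from 514 to 589 and Cap1 from 8565 to 11805, and other genes correlated most with Ndufs5 there. In set B Cap1 was at 4015 to 4379 in the 4 libraries of low Ndufs5 and at 2107 to 2449 in the other 8, and Rbm45 at 18.4 to 30.7 and 117 to 158. Cap1 lies at chr4:122859047-122886056, on the chromosome of Ndufs5, and Rbm45 on chromosome 2. The origin of the split was not tested.

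**Figure D5:**
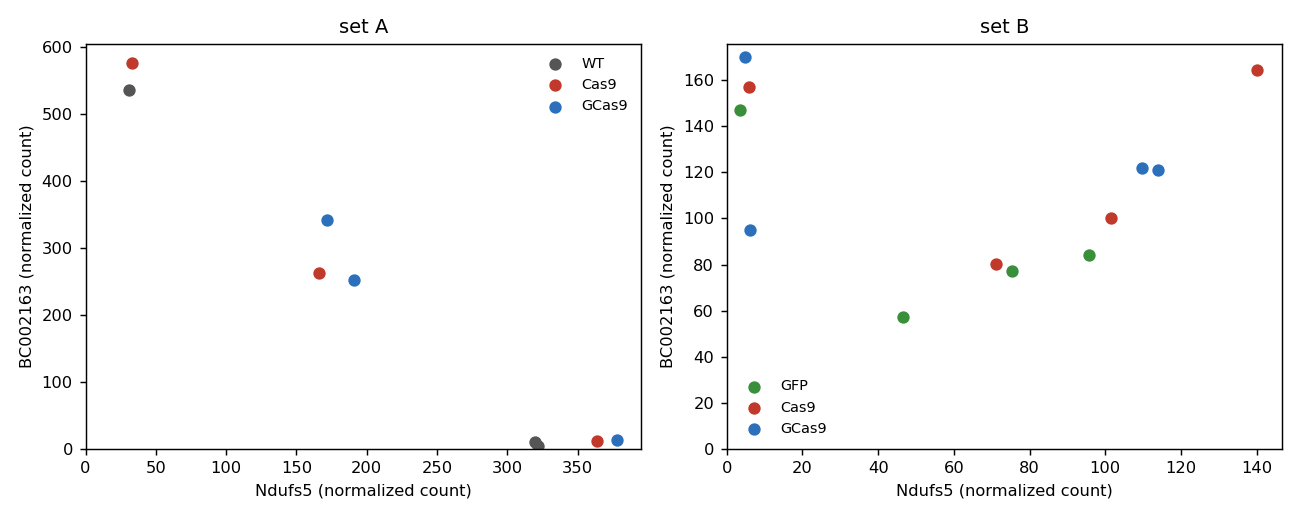
Normalized counts of Ndufs5 and of its near-identical copy BC002163 in each library of set A (left) and set B (right), coloured by group. In set A the copy is at 3.8 to 13.4 where Ndufs5 is above 300 and at 536.9 and 576.5 where Ndufs5 is below 40, and in set B 4 libraries from all 3 groups lie at 3.4 to 6.1 for Ndufs5.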

How the data were processed

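RNA of mouse striatum was sequenced in 21 libraries. Per the submitters' processing notes, the tools were HTSeq, STAR 2.5.2b, R 3.3.3, DESeq2 and SAMtools, on GRCm38.p3. Per the labels' protocols, RNA was taken with RNeasy kits and libraries came from SMARTer cDNA and Nextera XT. The deposited signal values are gene read counts divided by a size factor for each library, and 100% of values came out as whole reads within 0.001 once multiplied back. How the authors treated reads that fit several places is not given in the sources used here.

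From these values, limma 3.58.1 (R 4.3.3) was fitted to log2(normalized count + 1) with a mean-variance trend, each set with its 3 groups, two-sided, for genes with a mean of at least 10. Adjustment ran over all genes tested. The interaction was fitted over all 21 libraries. Whole reads were tested with edgeR 4.0.16 and DESeq2 1.42.0 as alternatives. The other alternatives changed the pseudocount, filter, scaling, weights and replicate block or left out each library. What a replicate number stands for is not given in the labels. Deviations correlated over 0.1 in all 4 same-numbered pairs of Cas9 and GCas9 libraries in set B (0.121 to 0.329). The same held for all 3 of WT and GCas9 in set A (0.112 to 0.284). In the other comparisons within a set at least 1 pair did not correlate over 0.1. The main fits held groups only, so the differences, SEs and p-values given are unpaired in every comparison. The replicate block was fitted only as an alternative. A sex covariate read from Xist and reads thinned to the smallest library were added after the data were seen. The scripts were tested on simulated data.

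The members and lists were chosen with earlier results of these data known. Genes named with values were the member of smallest unadjusted p for each complex and comparison, the mitochondrially encoded genes, the isoform families, Sdha to Sdhd and Cyc1. Other genes were chosen after their values were seen, namely Atp5l, Atp5b, Ndufa6, Ndufs5, BC002163, Cap1, Rbm45 and Ttr. Transcripts and windows of 50 bases came from GENCODE M21 (GRCm38), which matched 98 of 99 members, and promoters from RefSeq (GRCm38.p6).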

Additional observations from a re-analysis of the deposited data

Results flagged for a closer look

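Within groups of 4 libraries, 1 library lay far from the other 3 for 6 of the 144 group values examined, which covered 46 named members and the 2 shares of reads in each of the 3 groups of set B. Chance alone marks about 1 in 20 such groups. In GFP replicate 3 of set B, Atp5g2 stood at 38.12 normalized counts against 61.04 to 64.61 in the other 3, and Atp5g3 at 2013 against 2180 to 2209. In Cas9 replicate 3 of set B, Cox6a2 stood at 64.92 against 39.29 to 41.78, Sdhb at 2455 against 2071 to 2079 and Uqcr11 at 1447 against 1519 to 1528. In GCas9 replicate 1 of set B, Atp5o stood at 1265 against 1425 to 1451.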

How the results depend on the processing

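The number of members past the threshold was 0 in 145 of 147 alternative fits, medians moved by less than 1 SD between libraries in 292 of 294, and single members kept direction and side of the threshold in 872 of 880. That SD comes from the same libraries, so leaving out 1 of them can hardly move a median by 1 SD. For those fits the count of medians cannot show stability. The SD is also wide in set B. There the mitochondrially encoded median ran from -0.07 to 0.29 for GCas9 against GFP and from -0.37 to 0 for GCas9 against Cas9, and the nuclear median from 0.07 to 0.28 and from -0.13 to 0.04. With array weights 4 members passed in Cas9 against WT and 1 in GCas9 against Cas9 of set A. In these fits the Cas9 group rested mainly on Cas9 replicate 3 (weight 5.6). Quantile normalization moved the mitochondrially encoded median to -0.06 for Cas9 against WT and to 0.11 for GCas9 against Cas9 of set A. It turned mt-Nd2 to -0.06 in Cas9 against WT, mt-Nd5 to 0.15 in GCas9 against Cas9 of set A and mt-Nd5 to -0.21 in the difference between sets. Over the libraries left out, that difference ran from -0.22 (without GCas9 replicate 4 of set B) to 0.05 (without GCas9 replicate 1 of set B) for Uqcrq and from -0.03 (without GCas9 replicate 4) to 0.29 (without GCas9 replicate 1) for mt-Nd5. The causes were not tested. A replicate block put 0 members past the threshold in each comparison. It moved the members lower at an unadjusted p under 0.05 from 3 to 1 in GCas9 against Cas9 of set A. In set B it moved them from 0 to 1. The share of all genes lower was not taken with the block. Members higher at that p went from 3 to 2 in Cas9 against WT (7.7% of all genes). Same-numbered libraries correlated at -0.019 to 0.644 (set A) and -0.13 to 0.462 (set B), and 12 of 18 and 15 of 24 matched best with their own number. The lower depth of set B limits rare forms such as Cox8b and Cox7a1.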
